A study of Mus musculus with 12 samples.

Results

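The 5′ UTRs described here belong to the transcription factor families that neurons switch on or use after depolarization. They were picked by a rule on gene names, and this choice was made with earlier results of these data known. The rule took every listed 5′ UTR whose gene belongs by name to the Fos, Jun, Egr, Nr4a, Klf, Atf, Creb, Mef2, Ier, Maf, Npas, Srf, Per, Bhlhe, Nfil3 or Cebp family. In all, 33 of the 3366 named 5′ UTRs met this rule (0.98%). The rule also named Crem and the Nfat family, of which no 5′ UTR was listed, and it took in Atf7ip, whose product is a partner of ATF7 and not a transcription factor of that family. Fos itself, Egr1, Nr4a2, Creb1 and Per1 were not among the listed 5′ UTRs either. The Fos and Jun members were Fosb, Fosl2, Jun, Junb and Jund, and the Creb members were Creb3 and Creb3l1. The measurement was eIF4G2 CLIP, in which ultraviolet light fixes a protein to the RNA it touches in the living cell, the protein is pulled down with an antibody, and the RNA fragments that come with it are sequenced as tags. Each value is the raw number of tags that 1 library gave on 1 5′ UTR. Resting and depolarized primary cortical neurons from mouse embryos were compared. The depolarized cultures were first silenced for 2 h with tetrodotoxin, a sodium channel blocker, and DL-AP5, an NMDA receptor antagonist, then received 55 mM KCl for 1 h and recovered for 30 min. Cycloheximide, which halts elongating ribosomes, was given to the neurons of both conditions for 2 min before harvest, and each replicate pooled several dishes. There were 6 resting and 5 depolarized libraries, because the table labelled depolarized replicate 5 is an exact copy of the one for resting replicate 5 and was not used.

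eIF4G2, also called DAP5, resembles the scaffold eIF4G but lacks the part that binds the cap-binding protein eIF4E, and it is known for helping initiation on mRNAs that do not depend on that protein. Calcium that enters a depolarized neuron activates kinases and phosphatases that act on CREB, SRF and MEF2, factors already present in the cell. These turn on the immediate early genes, among them Fos, Jun, Egr, Nr4a and Npas4, whose products then regulate later genes for synapse growth and inhibition. Jun and Fos proteins pair through leucine zippers to form the AP-1 factor.

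Positions below are those of the longest protein-coding transcript of each gene in GENCODE M21 on GRCm38. The counts were made on UCSC transcripts of mm10, which may start elsewhere. The hexamer CGCGGC is shown because the study examined it as a motif of eIF4G2 crosslinking. It was searched on the strand of the gene only. In each of these stretches of AP-1 and MEF2 members, 5′ to 3′ on the strand of the gene, 1 copy stands in capitals. The last Fosl2 stretch holds a further copy in lower case.
Jun, chr4:95052023-95052052, minus strand: ggatccagcgccCGCGGCtcctgcaccggt
Jun, chr4:95051710-95051739, minus strand: gcgagcgctagcCGCGGCtgcctagcgtcc
Fosl2, chr5:32136499-32136528, plus strand: cgaagtgcggtgCGCGGCgatcgggggggt
Fosl2, chr5:32136628-32136657, plus strand: cagcagactgtgCGCGGCcgcggcgagggc
Fosb, chr7:19309714-19309743, minus strand: cgcacgctgcacCGCGGCactgcccggcgg
Jund, chr8:70698996-70699025, plus strand: ccccggggaggcCGCGGCcactccccccgc
Mef2d, chr3:88142553-88142582, plus strand: aggccgcgtggaCGCGGCgccttcgctgtt
The 5′ UTRs of Junb, Npas4, Nr4a1 and Nr4a3 did not contain this word.

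Upstream ATG codons are shown for Npas4 and Nr4a1 because these lie before the start codon of the protein in the GENCODE transcripts. The RefSeq transcripts of both genes start downstream of all of the stretches shown, and whether the counted UCSC transcripts contain them was not tested. In each stretch 1 ATG stands in capitals, and the middle Npas4 stretch holds a further ATG in lower case.
Npas4, chr19:4990283-4990303, minus strand: ccctaatccATGtactgttcc
Npas4, chr19:4990253-4990273, minus strand: tagaatgtaATGgaaaacctg
Npas4, chr19:4990130-4990150, minus strand: cgtcacgggATGacgtcggaa
Nr4a1, chr15:101258347-101258367, plus strand: gacttggctATGttgctgtgc
Nr4a1, chr15:101258375-101258395, plus strand: ggtgaggggATGttgtgagtt
The GENCODE 5′ UTRs of Npas4 and Nr4a1 each held 4 upstream ATG codons, and all of these opened a reading frame that closed within the 5′ UTR. The 5′ UTRs of Jun and Junb held 0. The counts give no position within a 5′ UTR, so no tag can be placed at any of these words.

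The libraries were shallow, from 306 to 3224 tags at rest and from 264 to 5240 after depolarization, and 15767 tags in all. The resting libraries summed to 6471 tags and the depolarized ones to 9296. Tags given below by condition are raw, so equal numbers mean a lower level after depolarization. Replicates 1 to 3 gave 217 of the 240 tags on members and 12384 of the 15767 tags on all 5′ UTRs. Neuronal markers were present in every library (11 of 16 marker genes listed, 0.217% to 4.25% of tags at rest and 0.911% to 2.27% after depolarization), the highest being the synaptic vesicle protein gene Syt1 with 143 tags. The glutamate transporter Slc1a2, which astrocytes express strongly and neurons weakly, had 10 tags, 1 microglial gene had 1 tag, and no oligodendrocyte or endothelial marker was listed. Astrocyte markers took at most 0.124% of the tags of any library.

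The transcription factor 5′ UTRs took a larger share of the eIF4G2 tags after depolarization. At rest they received 1.15%, 1.35%, 0.327%, 0.412%, 0.431% and 0.657% of the tags of replicates 1 to 6. After depolarization they received 1.85%, 2.93%, 2.14%, 1.09% and 1.52% of the tags of replicates 1, 2, 3, 4 and 6. The share was higher after depolarization in 5 of 5 replicate numbers, although the ranges of the groups overlapped. The 6 resting libraries averaged 0.720% ± 0.428 (SD) and the 5 depolarized libraries 1.91% ± 0.694 (SD), a difference of 1.19 percentage points that fell to 0.748 when Jun was left out. Within replicates 1 to 3 the means were 0.941% ± 0.541 and 2.31% ± 0.559 (SD, n = 3 each). In replicates 4 to 6 they were 0.500% ± 0.137 (SD, n = 3) and 1.30% ± 0.299 (SD, n = 2). Wilson 95% intervals of single libraries were wide at this depth, for example from 0.0577% to 1.83% in resting replicate 3, where 1 of 306 tags lay on a member. Levels of the mRNAs themselves were not measured in these libraries, so more mRNA in the cell and more eIF4G2 on each mRNA cannot be told apart. Cell number and RNA per cell are not known from these tags either.

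**Figure D1:**
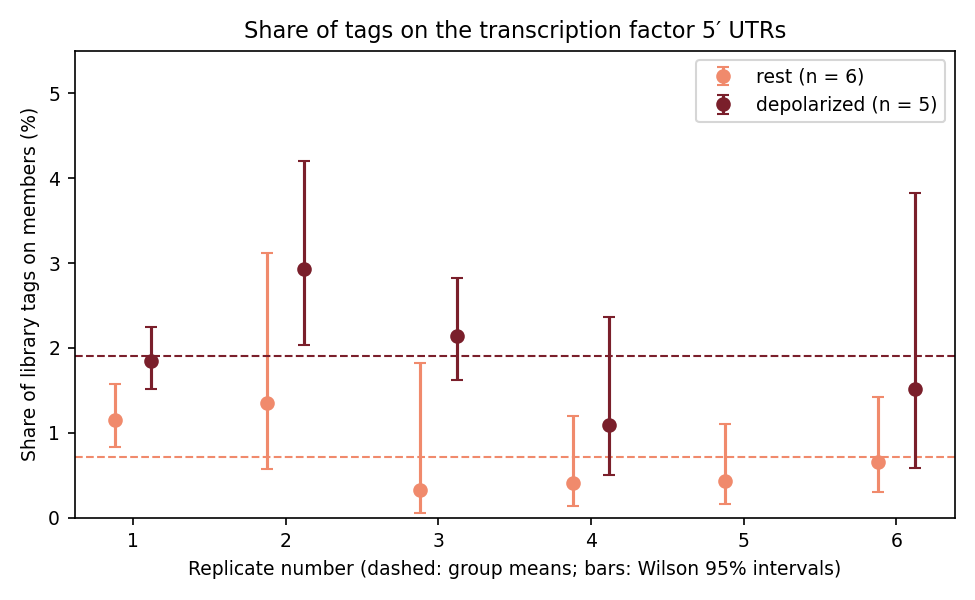
Share of each library's tags that fell on the 33 transcription factor 5′ UTRs (percent, vertical axis) against the replicate number (horizontal axis), for resting and depolarized neurons. Bars are Wilson 95% intervals and dashed lines the group means, 0.720% at rest and 1.91% after depolarization. The depolarized point lies above the resting point in each of the 5 replicate numbers that have both.

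A small number of genes carried these tags. The 5 members with at least 10 tags, Jun, Junb, Npas4, Fosl2 and Nr4a3, held 157 of the 240 tags (65.4%), while 21 members had under 5 tags and shared 35. In raw tags, out of 6471 at rest and 9296 after depolarization, the AP-1 family had 131, 25 at rest and 106 after depolarization. The Npas family followed with 27 tags (6 and 21) and the Nr4a family with 20 (3 and 17). The remaining families were lower, and MEF2 had 7 tags at rest and 8 after depolarization.

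**Figure D2:**
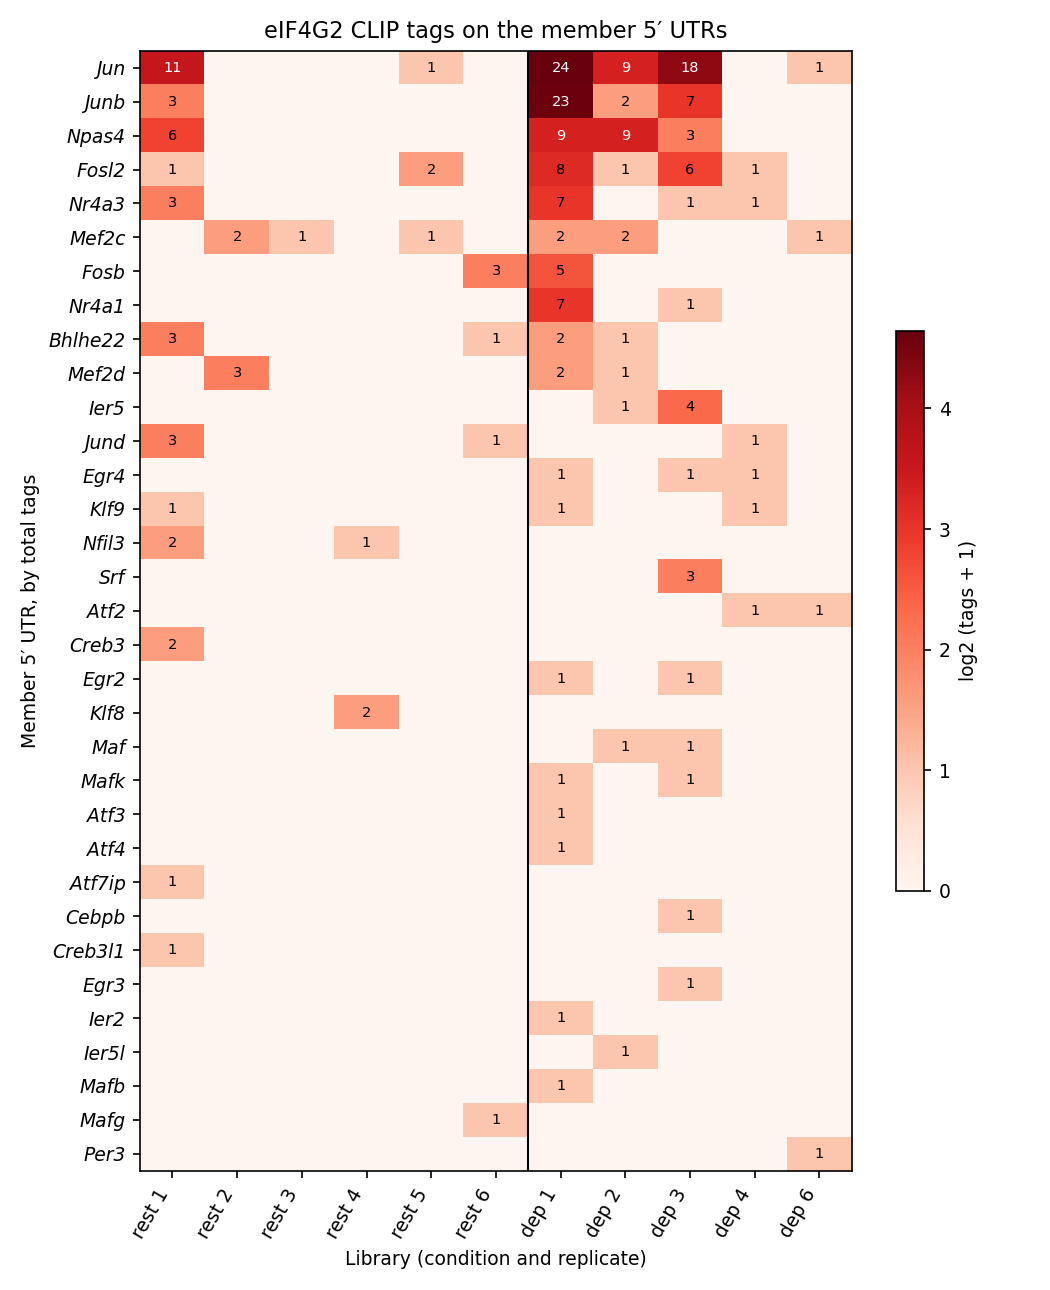
Tags on each of the 33 members (vertical axis, by total tags) in the 11 libraries (horizontal axis), printed in each cell and coloured by log2 (tags + 1), with resting libraries left of the black line. The darkest cells are Jun and Junb in depolarized replicate 1, with 24 and 23 tags, and most cells are empty.

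Jun, the AP-1 subunit for which the family is named, had the most tags of any member and ranked 18 of all named 5′ UTRs. Its 5′ UTR of 951 bases lies in 1 exon at chr4:95051272-95052222 on the minus strand, where the annotation also places the antisense gene Junos. At rest it had 11, 0, 0, 0, 1 and 0 tags in replicates 1 to 6. After depolarization it had 24, 9, 18, 0 and 1 tags in replicates 1, 2, 3, 4 and 6. All resting tags but 1 came from replicate 1, and depolarized replicate 4 had none, so the groups overlapped. In CPM, the tags of a 5′ UTR per 1000000 tags of its library, the level was 748 ± 1374 at rest and 5132 ± 3686 after depolarization (SD, n = 6 and 5). Over summed tags the depolarized level was 3.02 times the resting one (95% counting interval 1.59 to 6.21). Without resting replicate 1 this ratio was 18.2 (3.12 to 731), on 1 resting tag.

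Junb, an AP-1 subunit that pairs with Fos proteins and is induced early after stimulation, showed the highest ratio among the members that had tags in both conditions. Its 289-base 5′ UTR lies in 1 exon at chr8:84978430-84978718 on the minus strand. At rest only replicate 1 had tags, 3 in number. After depolarization replicates 1, 2 and 3 had 23, 2 and 7 tags, and replicates 4 and 6 had 0. The depolarized libraries with tags were all higher in CPM than the resting library with tags, and the zeros in both groups overlapped. The level was 155 ± 380 CPM at rest and 1909 ± 1923 CPM after depolarization (SD, n = 6 and 5), and the ratio of summed tags was 7.43 (2.32 to 37.9). Without depolarized replicate 1, which held 65.7% of the Junb tags, it was 4.79 (1.19 to 27.5). Without resting replicate 1 the depolarized level was 3.73 times that of 3 counts over the remaining resting libraries.

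Fosl2, which encodes the Fos-related subunit FRA2, was tagged in most depolarized libraries. It had 1 tag in resting replicate 1 and 2 in resting replicate 5. After depolarization it had 8, 1, 6, 1 and 0 tags in replicates 1, 2, 3, 4 and 6. Resting replicate 5 lay within the depolarized range in CPM, at 2155 against a depolarized range of 0 to 2622. The mean was 411 ± 863 CPM at rest and 1404 ± 971 CPM after depolarization (SD, n = 6 and 5), and the ratio of summed tags was 3.71 (1.06 to 19.9). Without resting replicate 5 it was 9.54 (1.48 to 400.1), on 1 resting tag, and without depolarized replicate 3 or resting replicate 1 its interval included 1 (0.793 to 17.4 and 0.657 to 25.1). Fosb and Jund were the AP-1 members with the fewest tags. Fosb, a Fos subunit with a long-lived splice form, had 3 tags in resting replicate 6 and 5 in depolarized replicate 1. Jund, the Jun family member that is expressed without stimulation, had 4 tags at rest and 1 after depolarization.

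Npas4, a bHLH-PAS factor that responds to calcium entry and is known for shaping inhibitory synapses, had 27 tags. Its 500-base 5′ UTR lies in 1 exon at chr19:4989817-4990316 on the minus strand. At rest only replicate 1 had tags, 6 in number. After depolarization replicates 1, 2 and 3 had 9, 9 and 3 tags, and replicates 4 and 6 had 0. Replicate 2, a library of 955 tags, stood apart at 9424 CPM, and resting replicate 1 at 1861 CPM lay above depolarized replicate 1 at 1718 CPM. The mean was 310 ± 760 CPM at rest and 2491 ± 3952 CPM after depolarization (SD, n = 6 and 5), with a ratio of summed tags of 2.44 (0.951 to 7.38). Without depolarized replicate 2 the ratio was 1.55 (0.539 to 5.04). Without resting replicate 1 the depolarized level was 2.45 times that of 3 counts over the remaining resting libraries.

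The Nr4a family, orphan nuclear receptors induced within minutes of stimulation, was tagged mainly in depolarized replicate 1. Nr4a3 had 3 tags in resting replicate 1 and, after depolarization, 7, 1 and 1 tags in replicates 1, 3 and 4. Its level was 155 ± 380 CPM at rest and 719 ± 823 CPM after depolarization (SD, n = 6 and 5), its groups overlapped, and its ratio of summed tags was 2.09 (0.521 to 11.99). Without depolarized replicate 1 that ratio was 1.06 (0.0888 to 9.28). Nr4a1 had no tag at rest and 7 and 1 tags in depolarized replicates 1 and 3, a level at least 1.86-fold higher against 3 counts over the resting group. That bound fell to 0.931, below 1, without resting replicate 1, and without depolarized replicate 1 only 1 tag was left and no fold can be given. Its annotated 5′ UTR spans 3 exons between chr15:101254269 and chr15:101270084 on the plus strand.

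**Figure D3:**
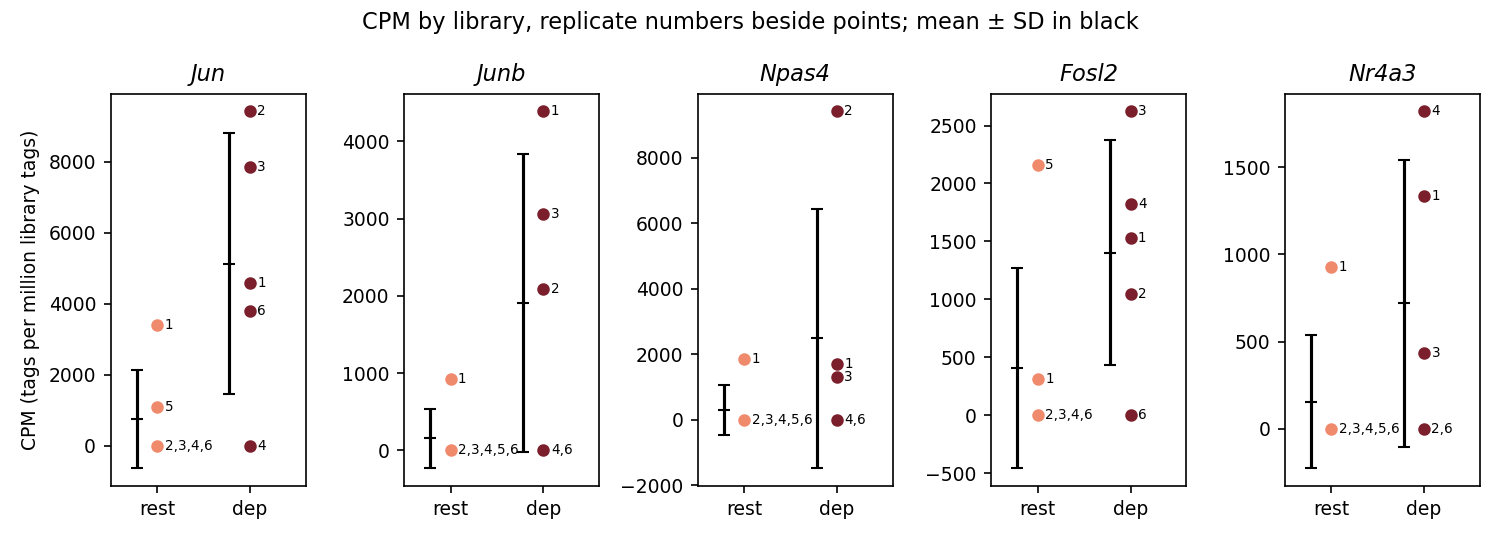
CPM (tags per 1000000 library tags, vertical axis, a separate scale in each panel) of the 5 members with at least 10 tags in resting (left) and depolarized (right) libraries. Points are libraries with replicate numbers beside them, and black bars are the mean ± SD, which can run below 0. Tags at rest come mainly from replicate 1, and depolarized replicate 2 stands apart for Npas4.

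Both tests were made over all 5′ UTRs. The replicate-aware test, edgeR's quasi-likelihood test with TMM normalization, was applied to the 317 5′ UTRs with at least 10 tags. At an adjusted P value below 0.05 it called none of these higher (0%) and none lower (0%) after depolarization, members included. At an unadjusted P value below 0.05 it called 24 higher (7.57%) and 1 lower (0.315%), and Jun and Junb were among those higher. With the replicate number as a block, edgeR called 2 higher and 0 lower at an unadjusted P value below 0.05, and no member was among them. DESeq2 also called none at an adjusted P value below 0.05, and called 5 higher and 0 lower at an unadjusted one, none of them a member. Jun had an edgeR log2 fold change of 2.05 ± 1.04 (SE) with an edgeR adjusted P = 0.596. Junb had one of 2.57 ± 1.08 (SE) with an edgeR adjusted P = 0.418. Npas4, Fosl2 and Nr4a3 had edgeR log2 fold changes of 1.80, 1.86 and 1.06, with edgeR adjusted P values of 0.630, 0.657 and 0.862. All 5 were above 0, as were 66.6% of the 317, whose median log2 fold change was 0.52. Relative to that median, Junb was higher by 2.05, Jun by 1.53, Fosl2 by 1.34, Npas4 by 1.28 and Nr4a3 by 0.53 on the log2 scale. Of the 5, only Jun had at least 10 tags at rest. The others passed the filter on total tags only through their depolarized tags, which favours a value above 0. Without replicate 1, which removed the deepest library of each condition and left 108 5′ UTRs in the test, edgeR called Jun (log2 fold change 3.85, adjusted P = 0.0351) and Npas4 (log2 fold change 4.42, adjusted P = 0.0370, no resting tag) higher among 7 5′ UTRs. Over all alternatives the edgeR adjusted P value ranged from 0.0351 to 0.996 for Jun and from 0.0370 to 0.996 for Npas4.

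The pooled test follows the study in its depth normalization, binomial test and threshold of P = 0.2. Summing the tags of a condition and testing on both sides with an exact test were chosen here, because the sources used here do not give these details. The test treats each tag as independent and ignores the spread between replicates. By this test 6 of the 33 members had more tags after depolarization, against 5.21% of the 3280 5′ UTRs with a tag, and 1 had fewer, against 4.51%. Those with more tags were Junb (P = 3.4e-05), Jun (P = 0.000204), Nr4a1 (P = 0.0156), Fosl2 (P = 0.0309), Npas4 (P = 0.0433) and Ier5 (P = 0.125), all by the exact binomial test. The 1 with fewer tags was Nfil3, a bZIP repressor that acts in the circadian system, with 3 tags at rest and 0 after depolarization (P = 0.125, exact binomial test). Jun and Junb also passed an adjusted P value of 0.05, as did 0.427% of all tagged 5′ UTRs with more tags. Among 5′ UTRs with at least 5 tags, 6 of 12 members and 23.5% of all had more tags by this test, and 0 of 12 members and 10.4% of all had fewer. Of these 6, Junb, Fosl2, Nr4a1 and Ier5 had under 5 resting tags and passed that filter only through their depolarized tags. The pooled log2 fold change was above 0 in 23 of 33 members and in 52.7% of all tagged 5′ UTRs. The median pooled log2 fold change, with a pseudocount of 0.1, was 2.86 over the 33 members and 0.33 over all tagged 5′ UTRs, values that 5′ UTRs with tags in 1 condition only push outward. The Npas4 call was lost without depolarized replicate 2 (P = 0.481, exact binomial test), the Nr4a1 call without depolarized replicate 1 and the Ier5 call without depolarized replicate 3 or resting replicate 1. Nr4a3 passed (P = 0.0313, exact binomial test) without resting replicate 1. An exact test made within replicate numbers, a block on the pairing, called 5 members with more tags (Junb, Jun, Fosl2, Nr4a1 and Atf2) and 3 with fewer (Nfil3, Creb3 and Jund), and gave Npas4 P = 0.400. Of all 5′ UTRs, 4.36% passed the same exact test with an excess and 10.1% with a deficit of tags.

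**Figure D4:**
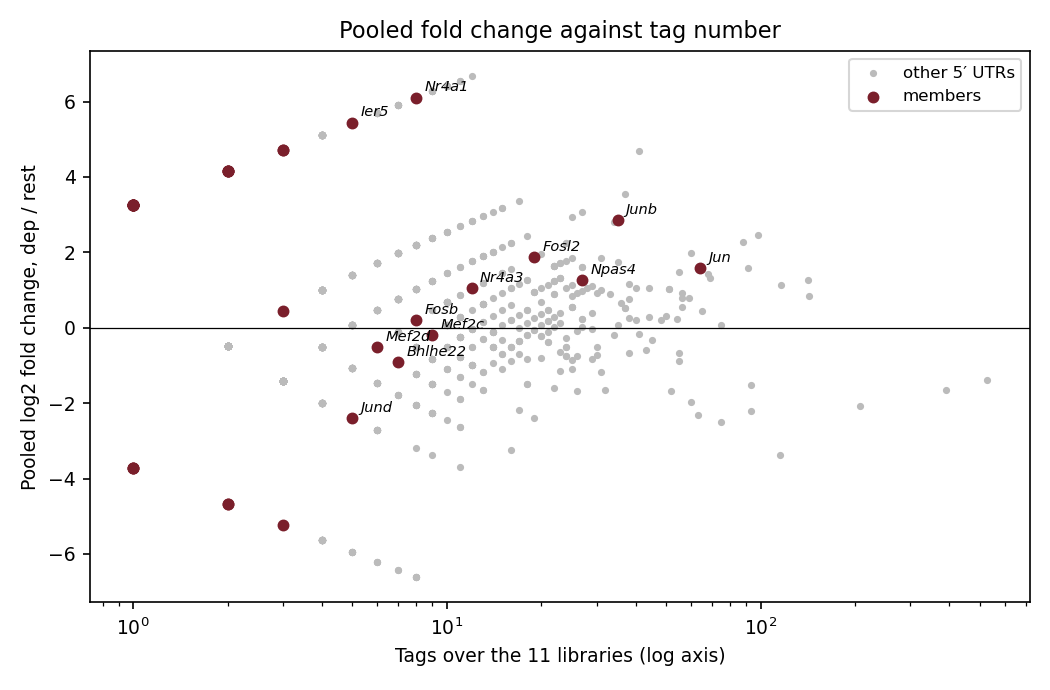
Pooled log2 fold change, depolarized over resting, with a pseudocount of 0.1 (vertical axis) against the tags over the 11 libraries (horizontal log axis) for all 3280 5′ UTRs with a tag. Members are dark and those with at least 5 tags are named. The outer curves are 5′ UTRs with tags in 1 condition only, and Jun, Junb, Npas4, Fosl2 and Nr4a3 all lie above 0.

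The Mef2 and Bhlhe members and Srf had between 3 and 9 tags each. Mef2c, a calcium-responsive MADS-box factor, had 2, 1 and 1 tags in resting replicates 2, 3 and 5 and 2, 2 and 1 tags in depolarized replicates 1, 2 and 6. Its paralog Mef2d had 3 tags in resting replicate 2 and 3 in 2 depolarized libraries. Bhlhe22, a bHLH repressor of cortical projection neurons, had 4 tags at rest and 3 after depolarization, in 2 libraries each. Srf, the serum response factor that drives many immediate early genes, had 3 tags, all in depolarized replicate 3, and its 5′ UTR overlaps the annotated gene Gm26904 on the other strand. None of these passed the pooled test.

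The remaining immediate early genes were close to the limit of detection. Ier5, an early response gene, had no tag at rest and 1 and 4 tags in depolarized replicates 2 and 3. The Egr zinc finger factors, which bind GC-rich promoter elements, had 6 tags, all after depolarization: Egr4 had 3, Egr2 had 2 and Egr3 had 1. The Maf family had 1 tag at rest and 5 after depolarization, the Atf and Creb family 4 and 4, and the Klf family 3 and 2. Per3, a clock gene, and Cebpb, a bZIP factor, had 1 tag each. Altogether 16 of 33 members had tags only after depolarization and 6 only at rest, against 36.3% and 27.9% of all tagged 5′ UTRs. Jun, Junb, Npas4 and Fosl2 had tags in each of depolarized replicates 1, 2 and 3, as did 6.34% of all tagged 5′ UTRs.

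The 5′ UTRs of the members were not set apart by length or base composition. Their median length was 375 bases and their median GC content 65.2%, beside 306 bases and 65.9% over the 3316 listed 5′ UTRs with a sequence. The hexamer CGCGGC occurred in 13 of 33 members (39.4%) and in 36.8% of all. The members that held it had 124 of the 240 tags (51.7%), and 64 of these 124 lay on Jun alone. The share of tags on all 5′ UTRs with the hexamer was not computed, so a link between hexamer and tags was not tested. An upstream ATG occurred in 23 of 33 members (69.7%) and in 66.6% of all. Per 100 bases, Junb had 12.1 tags, Jun 6.73, Npas4 5.40, Jund 4.59 and Nr4a1 3.92, while the longer 5′ UTRs of Fosl2 and Nr4a3 had 2.104 and 1.62. Counting error alone leaves neighbours in this order, such as Npas4, Jund and Nr4a1, unresolved. The lengths are those of the GENCODE 5′ UTRs, and those of the counted UCSC transcripts may differ. RefSeq starts Npas4 and Nr4a1 elsewhere, so their densities and their places in this order are uncertain.

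**Figure D5:**
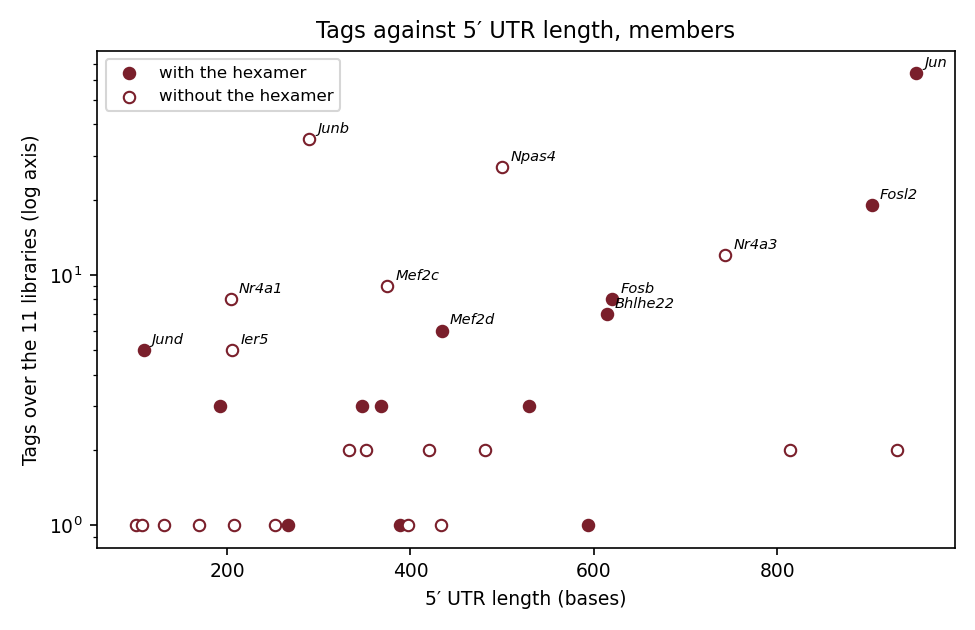
Tags over the 11 libraries (vertical log axis) against 5′ UTR length in bases (horizontal axis) for the 33 members, with filled points for those that hold the hexamer CGCGGC. Junb, at 289 bases and 35 tags, has no hexamer, and Jun, at 951 bases and 64 tags, has it at 2 positions.

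Promoters are shown because many of these genes are known targets of CREB, which binds the palindrome TGACGTCA and its shorter core TGACG, or CGTCA on the other strand. In RefSeq windows of GRCm38.p6, from 250 bases before to 50 after the start, the palindrome was found in 0 of the 27 members with a window and in 2.03% of all 27025 genes with a window. The core, which the palindrome contains and which was searched on both strands after that result was seen, was found in 15 of 27 members (55.6%) and in 23.0% of all genes with a window. These genes are not limited to the listed 5′ UTRs from which the members were drawn. The share among the listed ones was not computed, so a difference between members and other listed genes was not tested. A copy of the core stands in capitals in each stretch here, and the Nr4a3 and Npas4 stretches each hold a further copy in lower case.
Junb, chr8:84978838-84978866, minus strand: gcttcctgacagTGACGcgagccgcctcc
Fosb, chr7:19310089-19310117, minus strand: tggagttgcgggTGACGcaagcgcggggg
Nr4a1, chr15:101266794-101266822, plus strand: cccctctccatgCGTCAcggagcgcttaa
Nr4a3, chr4:48045088-48045116, plus strand: atgtcgtcacatTGACGtctcgcattcca
Npas4, chr19:4990124-4990152, minus strand: gacgtcacgggaTGACGtcggaagtctgg
The Npas4 stretch lies inside the GENCODE 5′ UTR, because RefSeq places the start of the gene further downstream, and the RefSeq start of Nr4a1 used here differs from the GENCODE one as well. A match of these letters is not evidence of binding.

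Other genes of the response were examined for comparison. Of 45 effector genes that act downstream of neuronal activity, 18 were listed, with 40 tags at rest and 114 after depolarization. edgeR tested 8 of them and called 0 at an adjusted P value below 0.05. By the pooled test 6 had more tags, namely Homer1, Vgf, Dusp1, Dusp6, Plk2 and Spry2, and 1, Inhba, had fewer. Over all 5′ UTRs with a tag these shares were 5.21% and 4.51%, and over those with at least 5 tags 23.5% and 10.4%. Homer1, a scaffold of the postsynaptic density, had 3 tags at rest and 21 after depolarization (P = 0.00434, exact binomial test). Dusp1, a phosphatase that switches off MAP kinases, had 5 and 22 (P = 0.0146, exact binomial test), and Plk2, a kinase that acts in synaptic scaling, had 0 and 10 (P = 0.00781, exact binomial test). Bdnf, the neurotrophin, had 5 tags in each condition, a pooled log2 fold change of -0.51.

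Of 58 genes that carry the calcium signal to the nucleus, 33 were listed, with 62 tags at rest and 154 after depolarization. edgeR called 0 of the 3 it tested. By the pooled test Map2k1, Prkar2a and Gsk3b were among those with more tags and Camkk2 had fewer. Gsk3b, a kinase that phosphorylates many transcription factors, had 13 and 38 tags (P = 0.0293, exact binomial test). The circadian list had 4 of 20 genes listed with 9 tags, and the list of other bZIP and stress factors 4 of 21 with 25 tags, and neither had a call in either test. Map2, Syt1 and Dlg4 were among the neuronal markers that also had more tags after depolarization by the pooled test, and no neuronal marker had fewer.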

How the data were processed

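eIF4G2 CLIP was performed on cultured cortical neurons of both conditions. The authors deposited raw counts per library, each the number of tags over the 5′ UTR of a gene's longest UCSC transcript. Alignment was to mm10 (Rsubread), after CLIP Tool Kit had cleaned the reads and merged identical ones. The submitters' processing notes also name cutadapt. Use of strand in counting and the treatment of reads that map to several places were not given in the sources used here, so tags of overlapping genes, such as Jun and Junos, are uncertain. Of 3367 entries, 1 had no gene name and 0 tags (0%) and was left out.

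Members and gene lists were chosen with earlier results of these data known. Members with at least 10 tags, and Junb, are described in full, those with 5 to 9 tags by library and condition, and others by their totals. Genes outside the rule are named only from the related lists, where they had at least 10 tags or passed a test. Some genes of these lists are not reported here. Library sizes were totals over all named 5′ UTRs, and 1 tag was worth more CPM in a shallow library. Tests were edgeR 4.0.16 (R 4.3.3, quasi-likelihood, TMM, at least 10 tags, Benjamini-Hochberg) and the pooled exact binomial test (pseudocount 0.1), with DESeq2 1.42.0 as an alternative, and the edgeR code was tested on simulated data. All 55 pairs of libraries differed by more than sampling noise (200 draws each). Duplicates were collapsed by sequence, so intervals (Wilson or exact, 95%) and floors of 3 counts cover counting error only. A ratio to 3 counts sets the observed depolarized level against that floor and leaves out counting error in the depolarized tags. The labels give 6 replicates per condition, while the paper (5) and the series text (3) give other numbers and call the replicates biological. The n used here counts labelled libraries, and if some share a culture, P values and SDs cover partly technical spread.

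The labels state that the resting and depolarized samples of each replicate were pooled after reverse transcription. Deviations of same-numbered libraries from their group means correlated at 0.156 to 0.243, and with the shared pooling the numbers were taken to pair the samples, although only 3 of 5 depolarized libraries were closest to the resting library of their own number. Of the listed genes, 3316 had a GENCODE M21 5′ UTR sequence, all members included. Figures used matplotlib 3.10.9 under Python 3.11.15.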

Additional observations from a re-analysis of the deposited data

Results flagged for a closer look

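Of 16 groups of libraries examined over 8 measures, 8 had 1 library far from the rest of its group. A set rate of 1 in 20 would give 0.8, but this is not a measure of chance here. The measures come from the same libraries, and where all others of a group have 0, the only library with a tag is always flagged. Resting replicate 1 was the flagged library 6 times. It held 3224 tags, against 928 in the next resting library, and 12 members with a tag, against 4. It also stood apart from the other resting libraries in CPM on Jun (3412, next 1078), Junb (931, next 0), Npas4 (1861, next 0) and Nr4a3 (931, next 0). Its depth moves with these values, and its part in them was not tested. Depolarized replicate 2 stood apart on Npas4, at 9424 CPM against 1718 in the next library. Resting replicate 5 stood apart on Fosl2, at 2155 CPM against 310.2, which rests on 2 tags.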

How the results depend on the processing

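The edgeR log2 fold changes of Jun, Junb, Npas4, Fosl2 and Nr4a3 stayed above 0 under every alternative that tested them. They were followed because of their total tags, which favours such a sign where resting tags are few. With the replicate block, 304 5′ UTRs were tested and 0 were called (2 higher and 0 lower at an unadjusted P value below 0.05), and Jun had a log2 fold change of 2.67 and Junb of 2.54. edgeR calls of 5′ UTRs higher ranged from 0 to 7 and of members from 0 to 2 when libraries were left out, 1 was called higher with library totals in place of TMM and in replicates 1 to 3 alone, and 1 lower in replicates 4 to 6 alone. The median log2 fold change was 0.38 with library totals and 1.16 with DESeq2.

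The pooled test called more tags on 171 5′ UTRs and fewer on 148. At P below 0.05 these were 84 and 41 (members with fewer, 0), at an adjusted P value below 0.05 14 and 10 (members 2 and 0), and with at least 10 tags 107 and 39 (members with fewer, 0). TMM sizes gave 233 and 90 (members with fewer, 0), replicates 4 to 6 alone 44 and 17 (members 1 and 0), and the exact test within replicate numbers, a replicate block, 139 and 321 (members with fewer, 3). With libraries left out the ranges were 98 to 189 and 43 to 163, and for members 4 to 7 and 0 to 2. The difference in share ranged from 0.930 to 1.39 percentage points.

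The direction turned for some members with 9 tags or fewer, and no reversed value passed the pooled test. Mef2c turned positive with TMM sizes (0.0042) and in replicates 4 to 6 alone (1.52), as did Jund (1.52), while Fosb turned negative there (-4.37). When libraries were left out the pooled log2 fold change ranged from -1.17 to 0.69 for Mef2c, -5.12 to 5.37 for Fosb, -1.80 to 4.69 for Mef2d and -1.40 to 0.064 for Bhlhe22. The cause was not tested. Differences on 5′ UTRs with 1 tag, 1374 of 3280, were not detectable.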
